A study of Mus musculus with 4 samples.

Results

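Intraflagellar transport (IFT) and BBSome genes were read in the polyadenylated RNA of mouse cells labelled pachytene spermatocytes. These are the germ cells in the long middle stage of meiotic prophase. The members were chosen by gene symbol, as rows named Ift or Bbs followed by a number and 14 further named genes of the same complexes, of the dynein-2 motor and of the ARL GTPases. They came to 41 of the 50763 genes in the table. The rule uses symbols and no measured value, but it was proposed with earlier results of these data known. Ift25 is a current symbol of the small heat shock-related gene Hspb11. The rule names Hspb11 as excluded, but no row carries that symbol and the Ift25 row fits the pattern, so Ift25 was kept. It changed no count of calls: 1 higher and 22 lower were found with and without it.

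The study compared 2 libraries of wild-type (WT) mice with 2 of mice whose genotype is labelled Hsf5 knockdown. Hsf5 encodes a heat shock factor family transcription factor of the testis. All 4 libraries came from testis, and the labels give no strain, no age and no account of how the knockdown was made. They call the replicates biological without naming animals, so p-values measure only the spread between these libraries, which may be technical.

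IFT moves cargo along the microtubules of a growing cilium or sperm tail. Kinesin-2 carries trains outward with the IFT-B complex, and cytoplasmic dynein-2 brings them back with the IFT-A complex. The BBSome is a coat of BBS proteins, recruited by the GTPase Arl6, that links membrane proteins to these trains. In mouse testis, loss of several IFT proteins leaves sperm without normal tails, and mice lacking some BBS proteins form no sperm flagella.

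The counts assigned to genes summed to 33287428 to 42479164 per library, and members had at least 80 counts in every library. Hsf5 itself stood at 586 and 449 CPM (counts scaled to library size by the TMM method) in WT and at 287 and 238 CPM in the knockdown, with a log2 fold change of -0.98 (SE 0.31; edgeR, adjusted p = 0.0217). That call was lost without WT replicate 1 (-0.79; edgeR, adjusted p = 0.219), without WT replicate 2 (-1.13; adjusted p = 0.0725), with library totals as the only scaling (-0.55; adjusted p = 0.115) and against a minimum of 1.5-fold (adjusted p = 0.0772). Of 12 pachytene markers 9 were lower in the knockdown and Sycp1 was higher. Their summed level was 11818 and 11438 CPM in WT and 1931 and 1719 CPM in the knockdown. All 14 round spermatid markers were lower, at 4323 and 2155 CPM in sum in WT and 26.9 and 18.8 CPM in the knockdown, with Prm2, Smcp and Cylc2 at 0 there. All 15 Sertoli cell markers were higher, at 208 and 496 CPM in sum in WT and 4643 and 5280 CPM in the knockdown, and none was at 0 in either group. All 7 Leydig cell markers were higher, at 108 and 738 CPM and at 1269 and 2551 CPM, and 10 of 13 spermatogonia markers were higher, at 186 and 178 CPM and at 929 and 842 CPM. Of 11 leptotene and zygotene markers 5 were higher and 1 lower, at 964 and 818 CPM and at 1618 and 1000.1 CPM. Immune markers (6 of 7 higher, 10.9 and 10.5 CPM and then 157 and 52.5 CPM), peritubular markers (4 of 5 tested higher, 5.87 and 11.4 CPM and then 173 and 73.7 CPM) and endothelial markers (2 of 6 higher, 10.4 and 18.5 CPM and then 18.6 and 45.4 CPM) were sparse in WT. The part of these cells in the results below was not tested.

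All 41 members passed the low-count filter, and 22 of them were lower in the knockdown, 1 was higher and 18 did not pass (edgeR quasi-likelihood test, Benjamini-Hochberg adjusted p below 0.05 over 23594 genes). The 22 that fell are 53.7% of the members. Before adjustment (p below 0.05 in edgeR) Tulp3 was still the member higher, and the DESeq2 Wald test also called 1 member higher. Over all genes tested 33.5% were lower, 27.4% were higher and 60.9% were called in either direction. The median log2 fold change was -0.85 among the members and -0.12 among all genes tested. In this bulk RNA, fewer cells of a type and less RNA per cell cannot be told apart. The 2 WT and 2 knockdown values did not overlap for 33 members (80.5%), a share close to the 82.7% of all genes. Ift70a2 and Ift140 fell the most (log2 fold changes -3.72 and -3.38), and 17 of the 22 fell by at least 2-fold. Over all genes, 7605 of the 7902 called lower fell by at least 2-fold. When library totals were the only scaling, 12 members (29.3%) were lower, close to the 28.3% of all genes, and all genes then turned to more higher (8121) than lower (6680). When WT replicate 1 was left out, 13 members (31.7%) and 25.8% of all genes were lower. Of the 22 members 11 fell in all 12 alternatives: Ift140, Ift43, Ift70a2, Ift70a1, Ift46, Ift22, Ift172, Dync2i1, Bbs7, Bbip1 and Arl3.

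**Figure D1:**
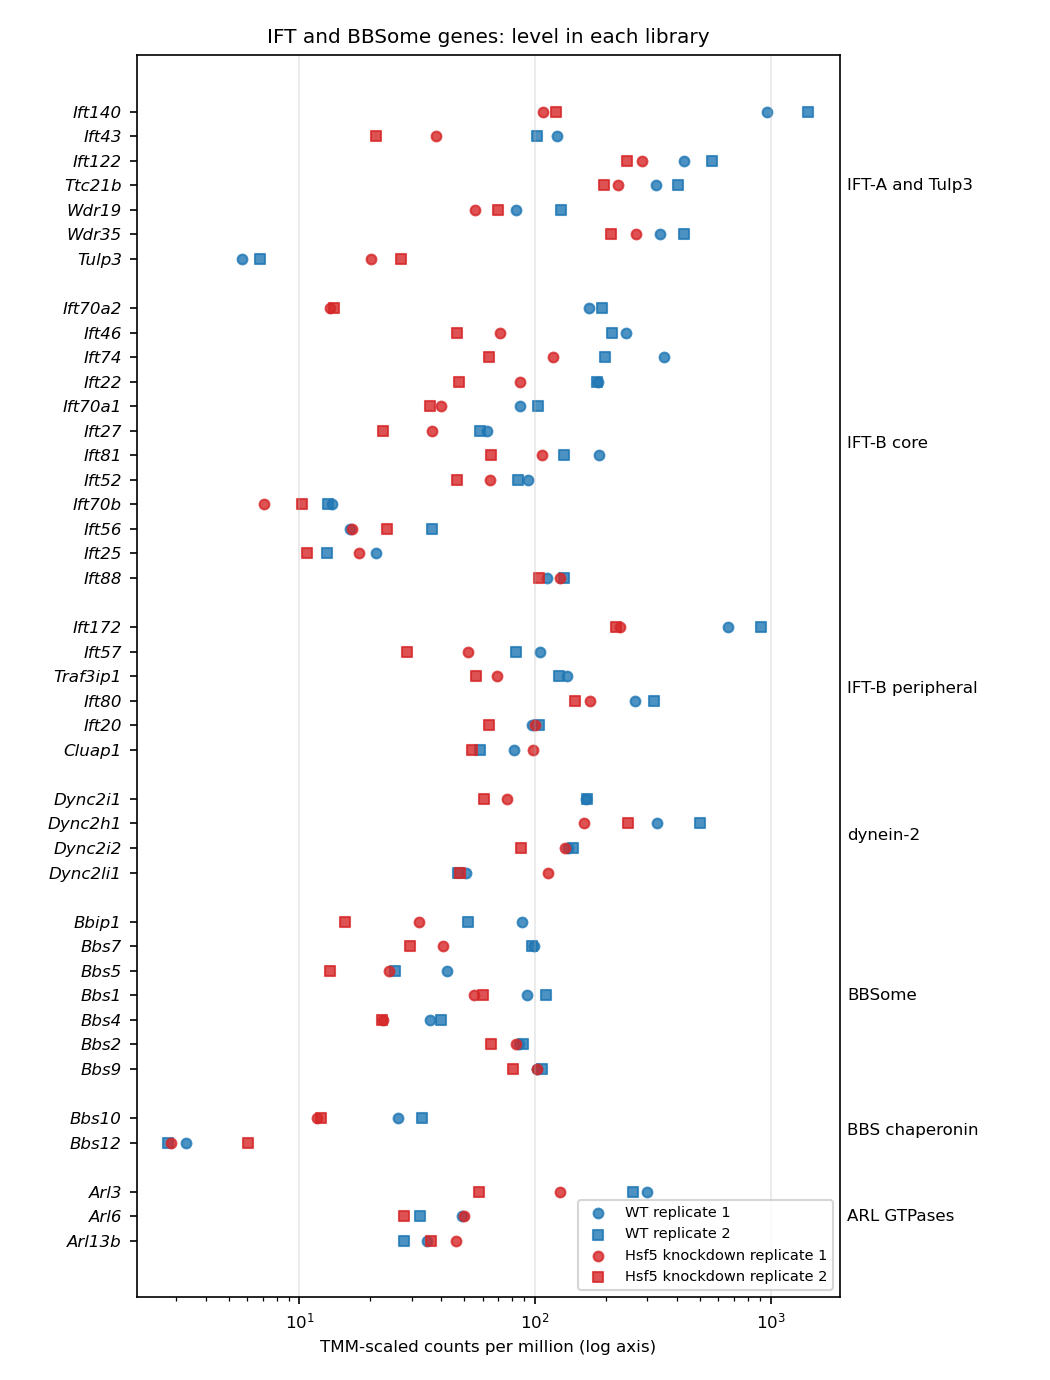
TMM-scaled CPM (log axis) of the 41 IFT and BBSome genes in WT replicates 1 and 2 (blue circle and square) and Hsf5 knockdown replicates 1 and 2 (red circle and square), grouped by role. Ift140 lay at 967 and 1443 CPM in WT and at 108 and 123 CPM in the knockdown, and Tulp3 was the member called higher.

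The start sites of the members were compared because the genes of cilium assembly are known to carry the X-box, a motif bound by RFX transcription factors. RefSeq promoter windows (GRCm38.p6, where the counts used mm39), from 250 bases before to 50 bases after a start site, were found for 36 of the 41 members, 37 windows in all. None was found for Dync2li1, Ift122, Ift80, Ift81 and Ift70b. Printed below are the 250 bases before the start site for the pair with the largest falls, Ift70a2 and Ift140, and for the other members with a full X-box, Bbs7 (lower) and Ift56 (not called). Capitals mark matches to the X-box arm GTTGCC or to the full X-box (GTTNCC, any 2 bases, GGNAAC), on either strand, written 5′ to 3′ in the direction of the gene.
Ift70a2, chr2:75978180-75978429, minus strand: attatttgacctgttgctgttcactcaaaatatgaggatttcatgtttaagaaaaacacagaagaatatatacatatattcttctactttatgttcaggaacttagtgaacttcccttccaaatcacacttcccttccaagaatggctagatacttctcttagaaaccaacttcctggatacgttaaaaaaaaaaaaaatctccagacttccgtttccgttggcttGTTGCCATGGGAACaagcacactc
Ift140, chr17:25015836-25016085, plus strand: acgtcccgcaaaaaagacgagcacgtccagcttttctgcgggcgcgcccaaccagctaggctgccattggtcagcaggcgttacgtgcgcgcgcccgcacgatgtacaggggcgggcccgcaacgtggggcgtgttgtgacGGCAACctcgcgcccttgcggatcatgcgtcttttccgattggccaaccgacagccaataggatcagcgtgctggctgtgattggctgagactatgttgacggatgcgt
Bbs7, chr3:36613390-36613639, minus strand: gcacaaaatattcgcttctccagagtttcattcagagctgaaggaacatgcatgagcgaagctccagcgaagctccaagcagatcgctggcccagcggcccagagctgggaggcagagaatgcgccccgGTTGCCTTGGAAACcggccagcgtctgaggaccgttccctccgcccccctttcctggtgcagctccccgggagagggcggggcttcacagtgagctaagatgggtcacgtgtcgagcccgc
Ift56, chr6:38381274-38381523, plus strand: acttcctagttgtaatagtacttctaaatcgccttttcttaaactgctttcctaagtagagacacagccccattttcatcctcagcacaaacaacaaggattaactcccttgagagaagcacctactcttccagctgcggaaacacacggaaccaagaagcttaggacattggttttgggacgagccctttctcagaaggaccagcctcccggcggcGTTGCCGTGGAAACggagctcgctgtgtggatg

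The full X-box of Ift70a2, GTTGCCATGGGAAC, began 24 bases before the start site, that of Ift56, GTTGCCGTGGAAAC, 33 bases before, and that of Bbs7, GTTGCCTTGGAAAC, 121 bases before. Ift140 had a single arm, 109 bases before the start site. The full form stood in 3 of the 37 member windows and in 148 of 32851 RefSeq windows (0.451%). The arm, which overlaps the full form, was in 14 member windows (37.8%) and in 12.5% of all windows. It was in 9 of the 19 windows of members that fell and in 5 of the 18 windows of the other members. Windows of tested genes held the arm at 12.99%, and those of tested genes that fell at 15.2%. A relaxed form (GTNNC, any 3 bases, GNNAAC), which also overlaps the full one, stood in 7 member windows (18.9%) and in 4.16% of all windows. The MYB motif CAACNG was in 18 member windows (48.6%) and in 35.0% of all, and the CRE core TGACG in 11 (29.7%) and 20.8%. The MYB motif was in 11 of the 19 windows of members that fell and 7 of the other 18, and the CRE core in 4 and 7. Windows of tested genes held the CRE core at 25.5% and the MYB motif at 34.7%. In those of tested genes that fell the shares were 22.2% and 40.4%. For the heat shock element pairs, TTCNNGAA was in 5 member windows (13.5%) and 8.52% of all, and GAANNTTC in 0 and 7.86%. The forkhead motif GTAAACA was in 0 member windows and 3.65% of all. These are matches of letters in 1 window, and binding was not measured.

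IFT-A is the complex of retrograde transport and of membrane protein entry. Of its 6 measured subunits 4 (66.7%) fell and none rose, against 33.5% and 27.4% of all genes. For all 6 both knockdown values lay below both WT values, and 82.7% of all genes did not overlap, in either direction. Ift140, a core subunit, had 967 and 1443 CPM in WT and 108 and 123 CPM in the knockdown. The groups were far apart and the knockdown libraries close together, a 10.4-fold difference (log2 fold change -3.38, SE 0.37; edgeR, adjusted p = 9.29e-05). Ift43, a small peripheral subunit, had 123 and 102 CPM in WT and 38.0 and 21.2 CPM in the knockdown (log2 fold change -1.93, SE 0.36; edgeR, adjusted p = 0.00149). Ift122, of the core, had 430 and 566 CPM in WT and 286 and 245 CPM in the knockdown (-0.91, SE 0.31; edgeR, adjusted p = 0.0290). Ttc21b, which encodes IFT139, had 326 and 406 CPM and then 225 and 196 CPM (-0.80, SE 0.30; edgeR, adjusted p = 0.0409). For both genes the groups did not overlap. Wdr19 (IFT144), at 83.2 and 130 CPM in WT and 55.8 and 69.3 CPM in the knockdown, had a log2 fold change of -0.77 and did not pass (edgeR, adjusted p = 0.0632). Wdr35 (IFT121), at 339 and 428 CPM and then 270 and 211 CPM, had one of -0.67 and did not pass either (edgeR, adjusted p = 0.0833). Both passed as lower with a replicate block and with scaling on cohesin and synaptonemal complex genes, and Wdr19 also with a filter at a mean of 1 CPM.

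Of the 4 IFT-A falls, those of Ift140 and Ift43 held in every alternative. The call of Ift122 was lost without WT replicate 1 (-1.11; edgeR, adjusted p = 0.0760) and without WT replicate 2 (-0.67; adjusted p = 0.310). Ttc21b lost its call without WT replicate 1 (-0.97; edgeR, adjusted p = 0.122), WT replicate 2 (-0.61; adjusted p = 0.353) or knockdown replicate 2 (-0.70; adjusted p = 0.0617). Neither passed with library totals only or against 1.5-fold.

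Tulp3, a tubby family adaptor that binds IFT-A and carries membrane receptors into cilia, was the member that rose. It had 5.69 and 6.81 CPM in WT and 20.2 and 27.0 CPM in the knockdown, so the groups did not overlap (log2 fold change 1.92, SE 0.40; edgeR, adjusted p = 0.00292). In WT it was the lowest member but Bbs12 per length, at 1.73 CPM per kilobase of transcript, against 174 for Ift140. The Sertoli and spermatogonia markers rose in the same libraries, as given above. Scaled on synaptonemal complex and cohesin genes, Tulp3 did not pass (1.25; edgeR, adjusted p = 0.118).

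IFT-B builds the outward trains. In its core, the part that binds tubulin and links the complex, 7 of 12 measured genes (58.3%) fell and none rose. Of all genes 33.5% fell and 27.4% rose. All 12 core fold changes were negative, as were 12252 of the 23594 over all genes. The fold changes of Ift25, Ift56 and Ift88 turned positive with library totals only. Ift70a2 had 169 and 193 CPM in WT and 13.5 and 14.0 CPM in the knockdown, the largest fall of a member (13.2-fold; log2 fold change -3.72, SE 0.31; edgeR, adjusted p = 2.28e-05). Its neighbour copy Ift70a1 had 86.6 and 103 CPM in WT and 40.0 and 36.0 CPM in the knockdown (-1.32, SE 0.29; edgeR, adjusted p = 0.00377). The third copy, Ift70b, was the lowest of the 3, at 13.8 and 13.2 CPM and then 7.09 and 10.2 CPM, and did not pass (-0.64; edgeR, adjusted p = 0.212). Per kilobase, Ift70a2 stood at 74.5 CPM in WT, Ift70a1 at 25.5 and Ift70b at 4.93. In the knockdown the means were 5.66, 10.2 and 3.16 CPM per kilobase, so that Ift70a2 no longer ranked first. The difference between the copies' changes was not tested. Of all stretches of 100 bases in the Ift70a2 transcript, 30.0% are also in Ift70a1 and 18.8% in Ift70b. How reads from such stretches were counted is not given in the labels, so the counts of the 3 copies are less certain.

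A further 5 core genes fell, with log2 fold changes from -1.95 to -0.89. Ift46, linked to the transport of outer dynein arms, had 242 and 213 CPM in WT and 71.2 and 46.8 CPM in the knockdown (-1.95, SE 0.32; edgeR, adjusted p = 0.000834). Ift22, a small GTPase, had 185 and 183 CPM and then 86.6 and 47.7 CPM (-1.46, SE 0.34; edgeR, adjusted p = 0.00519). Ift74 and Ift81 form the pair that binds tubulin. Ift74 had 354 and 198 CPM in WT and 119 and 64.0 CPM in the knockdown (-1.59, SE 0.40; edgeR, adjusted p = 0.00754), and its call was lost without WT replicate 1 (-1.12; adjusted p = 0.0560). Ift81 had 187 and 133 CPM and then 108 and 64.8 CPM, the weakest of the calls (-0.89, SE 0.34; edgeR, adjusted p = 0.0463). It was lost without WT replicate 1 (-0.64; edgeR, adjusted p = 0.303), WT replicate 2 (-1.09; adjusted p = 0.0583) or knockdown replicate 2 (-0.56; adjusted p = 0.155). Ift27, a GTPase that links IFT to the exit of BBSomes from cilia, had 62.4 and 58.2 CPM and then 36.5 and 22.6 CPM (-1.03, SE 0.34; edgeR, adjusted p = 0.0261). Its call was lost without WT replicate 1 (-0.99; edgeR, adjusted p = 0.0859), WT replicate 2 (-1.05; adjusted p = 0.0588) or knockdown replicate 2 (-0.72; adjusted p = 0.127). Ift27 and Ift81 did not pass with library totals only or against 1.5-fold.

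The partner of Ift27, Ift25, overlapped between the groups, at 21.1 and 13.034 CPM in WT and 18.0 and 10.8 CPM in the knockdown, and did not pass (-0.25, SE 0.44). Ift88, whose mutation in mice impairs ciliogenesis, had nearly the same values in both groups, 112 and 133 CPM in WT and 127 and 104 CPM in the knockdown (-0.08, SE 0.29; edgeR, adjusted p = 0.815). Ift52, a scaffold subunit, had a log2 fold change of -0.69 (SE 0.30) without overlap between the groups and did not pass (edgeR, adjusted p = 0.0713). It passed as lower with DESeq2 size factors, with a replicate block and with scaling on cohesin and synaptonemal complex genes. Ift56, which differed more between the WT libraries (16.3 and 36.7 CPM) than between the groups, had one of -0.39 (SE 0.45). Neither Ift88 nor Ift56 passed.

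The peripheral part of IFT-B, which docks kinesin-2, had 4 of 6 genes (66.7%) lower and none higher, against 33.5% and 27.4% of all genes. Ift172, its largest subunit, had 662 and 907 CPM in WT and 230 and 221 CPM in the knockdown (-1.80, SE 0.32; edgeR, adjusted p = 0.00133). Traf3ip1, which encodes IFT54, had 137 and 126 CPM and then 69.2 and 56.4 CPM (-1.07, SE 0.29; edgeR, adjusted p = 0.00977). Ift57 had 105 and 83.4 CPM and then 52.0 and 28.6 CPM (-1.23, SE 0.36; edgeR, adjusted p = 0.0142). Ift80 had 265 and 320 CPM and then 171 and 148 CPM (-0.87, SE 0.29; edgeR, adjusted p = 0.0268). In all 4 both knockdown values lay below both WT values. Over the 6 peripheral genes these 4 (66.7%) did not overlap, below the 82.7% of all genes, in either direction. Of the 4 calls only that of Ift172 held in every alternative. Traf3ip1 (edgeR, adjusted p = 0.0773), Ift57 (0.0635) and Ift80 (0.0962) lost theirs without WT replicate 1, Ift80 without WT replicate 2 (0.264) and Ift57 without knockdown replicate 2 (0.0539). None of the 3 passed with library totals only, and Ift80 did not pass against 1.5-fold. Ift20, which also sits at the Golgi, had 96.8 and 104 CPM in WT and 99.6 and 64.1 CPM in the knockdown (-0.30, SE 0.31). Cluap1 (IFT38) had 81.8 and 58.2 CPM and then 98.1 and 54.1 CPM (0.12, SE 0.36). Both overlapped between the groups and did not pass, and the sign of Cluap1 turned without WT replicate 2 (-0.08) and without knockdown replicate 1 (-0.29).

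**Figure D2:**
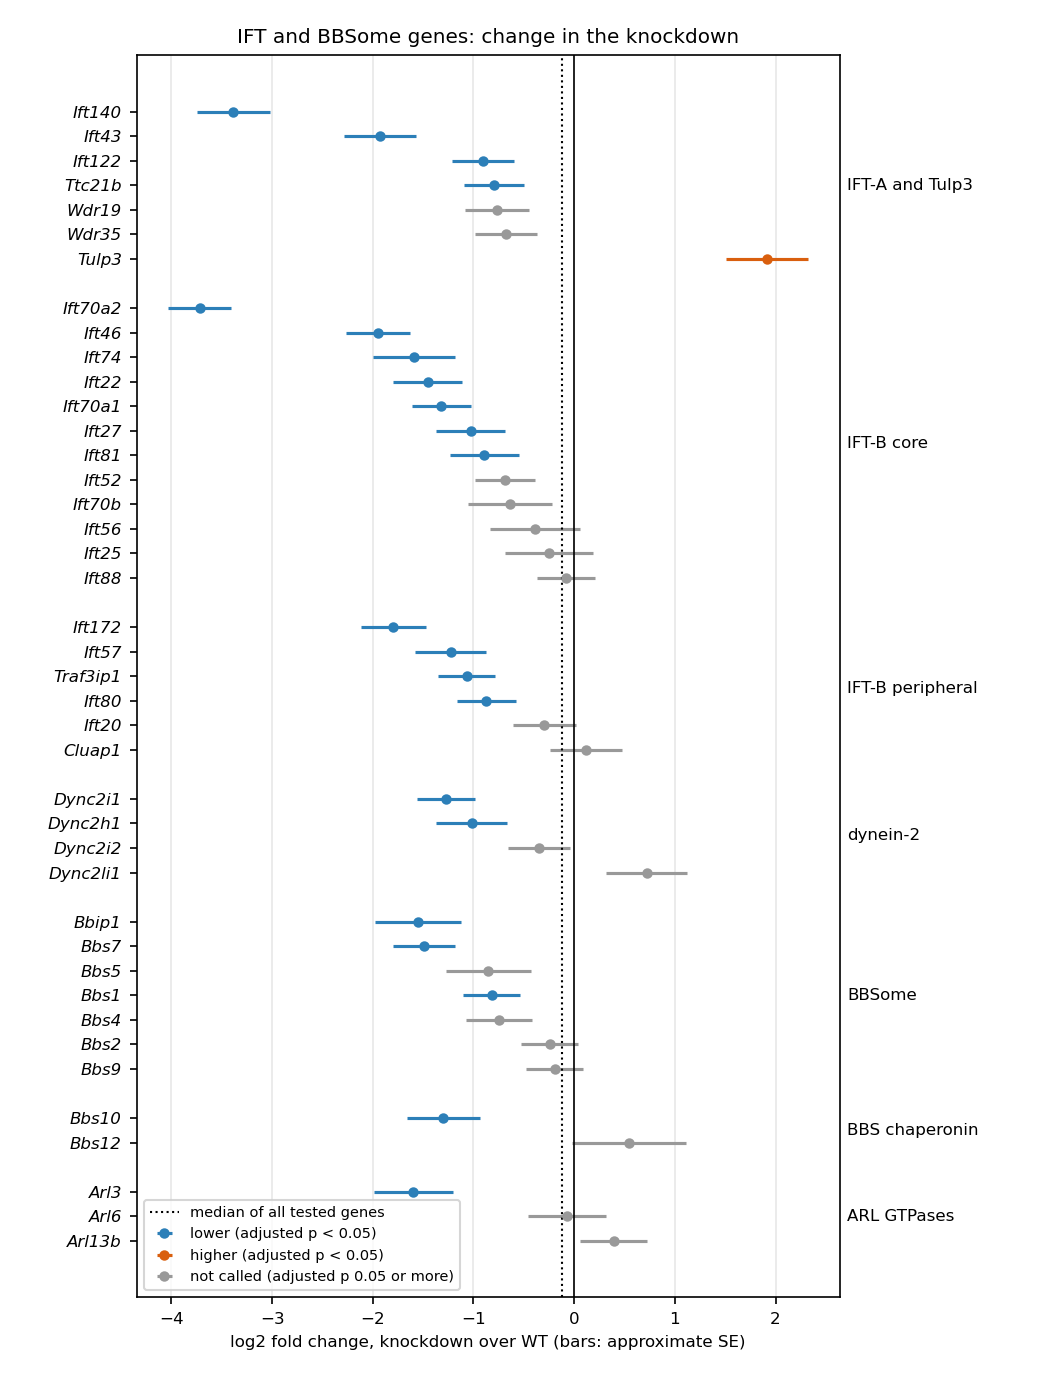
Log2 fold change of knockdown over WT for each member, with bars of 1 approximate standard error, grouped by role and coloured by call, with the median of all tested genes dotted. Blue points, 22 in number, are lower at an adjusted p below 0.05, 1 orange point (Tulp3) is higher, and 18 grey points did not pass.

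Among the 4 dynein-2 genes that the rule includes 2 fell and none rose, against 33.5% and 27.4% of all genes. With so few genes this count cannot be told apart from those shares. Light chain genes were outside the rule. Of these Dynlt2b fell (log2 fold change -1.51; edgeR, adjusted p = 0.0102), and Dynlrb2 fell and Dynlrb1 rose, as given below. Dync2i1, an intermediate chain, had 165 and 166 CPM in WT and 76.1 and 60.9 CPM in the knockdown (-1.27, SE 0.29; edgeR, adjusted p = 0.00413). Dync2h1, the motor heavy chain, had 329 and 502 CPM and then 162 and 249 CPM (-1.02, SE 0.35; edgeR, adjusted p = 0.0306). Its call was lost without WT replicate 2 (-0.66; edgeR, adjusted p = 0.312) or knockdown replicate 1 (-0.67; adjusted p = 0.114), with library totals only and against 1.5-fold. The other intermediate chain, Dync2i2, had 138 and 145 CPM and then 135 and 87.2 CPM and did not pass (-0.35, SE 0.31). Dync2li1, the light intermediate chain, had 51.2 and 47.0 CPM in WT and 114 and 48.2 CPM in the knockdown. Its higher mean there rested on knockdown replicate 1 (log2 fold change 0.72, SE 0.40; edgeR, adjusted p = 0.146), and without knockdown replicate 2 it passed as higher (1.22; adjusted p = 0.00756).

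All 7 BBSome genes that the rule includes had both knockdown CPM values below both WT values, but 3 (42.9%) passed the test. Over all genes 82.7% did not overlap, in either direction, and 33.5% passed as lower. The BBSome gene Ttc8, outside the rule and given below, overlapped between the groups and did not pass. Bbs7, a propeller subunit, had 99.4 and 97.4 CPM in WT and 40.7 and 29.5 CPM in the knockdown (-1.49, SE 0.31; edgeR, adjusted p = 0.00255). Bbip1, the smallest subunit, had 88.3 and 52.2 CPM and then 32.2 and 15.7 CPM (-1.55, SE 0.43; edgeR, adjusted p = 0.0111). Its exons overlap those of Shoc2 on the other strand by 97 bases in GENCODE M21. Shoc2 went the other way, from 721 and 723 raw counts to 2860 and 2700. Bbs1, which binds Arl6, had 92.4 and 111 CPM and then 55.1 and 60.4 CPM (-0.82, SE 0.28; edgeR, adjusted p = 0.0314). The Bbs1 call was lost without WT replicate 1 (edgeR, adjusted p = 0.0977), WT replicate 2 (0.266) or knockdown replicate 1 (0.125), and also with library totals only, without the low-count filter and against 1.5-fold. Bbs4 (-0.75, SE 0.33) and Bbs5 (-0.85, SE 0.42) did not pass (edgeR, adjusted p = 0.0715 and 0.106). The exons of Bbs4 share 194 bases with those of Adpgk on the other strand. Adpgk went from 154 and 201 raw counts to 1666 and 1616. Bbs4 passed as lower with the DESeq2 Wald test, with a replicate block and with scaling on cohesin and synaptonemal complex genes, and Bbs5 with the latter pair and without WT replicate 2 (-1.15; edgeR, adjusted p = 0.0399). Bbs2 and Bbs9 did not pass and were nearest to no change, with log2 fold changes of -0.24 and -0.19 (SE 0.29 and 0.28), values that turned to 0.19 and 0.24 with library totals only.

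Bbs10 and Bbs12 encode chaperonin-like proteins that assemble the BBSome. Bbs10 had 26.3 and 33.2 CPM in WT and 11.9 and 12.3 CPM in the knockdown (-1.30, SE 0.36; edgeR, adjusted p = 0.0118). The call did not hold without WT replicate 2 (-1.10; edgeR, adjusted p = 0.0605), without knockdown replicate 1 (-1.20; adjusted p = 0.0685) or with library totals only (-0.86; adjusted p = 0.0630). Bbs12 was near the bottom of the members, at 3.31 and 2.78 CPM and then 2.86 and 6.06 CPM, and did not pass (0.55, SE 0.57). Its sign turned without knockdown replicate 2 (-0.085). The exons of Bbs12 share 32 bases with those of Cetn4 on the other strand. Cetn4 had 15508 and 7477 raw counts in WT and 1933 and 806 in the knockdown.

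The 3 ARL GTPases differed in what was measured. Arl3, which releases lipid-bound cargo inside the cilium, had 298 and 262 CPM in WT and 127 and 57.7 CPM in the knockdown (-1.60, SE 0.39; edgeR, adjusted p = 0.00623). Without knockdown replicate 1 its log2 fold change was -2.20 (edgeR, adjusted p below 0.05 in every alternative, at most 0.0195). It was the member with the highest WT level per length, 253 CPM per kilobase. Arl6, the recruiter of the BBSome, overlapped between the groups, at 49.0 and 32.5 CPM and then 50.001 and 27.7 CPM, and did not pass (-0.07, SE 0.39). Arl13b, which activates Arl3, had 34.9 and 27.8 CPM and then 46.1 and 36.2 CPM (0.39, SE 0.33; edgeR, adjusted p = 0.328). Arl13b passed as higher with library totals only (0.82; edgeR, adjusted p = 0.0464) and had a negative sign under scaling on cohesin and synaptonemal complex genes (-0.35).

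Per length, the WT levels of the members spanned 1.25 CPM per kilobase (Bbs12) to 253 (Arl3). Arl3, Ift140 (174), Ift172 (145), Ift43 (134) and Ift74 (129) ranked highest, and all 5 fell. The WT level enters the fold change, so this ranking favours genes that fell. By knockdown level Arl3, Ift20 (70.1), Dync2i2 (61.1), Dync2li1 (59.7) and Ift122 (59.7) ranked highest, and of these Ift20, Dync2i2 and Dync2li1 did not pass. In the knockdown the range was 1.83 (Bbs12) to 83.7 (Arl3), and Ift140 stood at 16.6.

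Replicates differed by transcript length among the members in both groups. Of the 41 members, the 20 with the shorter transcripts (838 to 3047 bases in GENCODE M21) had, for replicate 2 over replicate 1, a median log2 ratio of -0.22 in WT and -0.74 in the knockdown. In the 21 with longer transcripts (3064 to 14264 bases) it was 0.26 and -0.21. Across the 41 members the log2 ratio rose with log2 length, with Pearson's r of 0.65 in WT and 0.63 in the knockdown (Spearman's rho 0.75 and 0.69), and each point of a group shares the same 2 libraries. Across other genes with a mean of at least 10 CPM, r was 0.30 in WT (10163 genes) and 0.53 in the knockdown (10010 genes). Between the fold change of knockdown over WT and length, r was -0.11 over the 41 members and 0.21 over the 10163 other genes (rho -0.086 and 0.15), and 10 of the 20 shorter and 12 of the 21 longer transcripts fell. Dync2li1 (-1.24), Arl3 (-1.14) and Bbip1 (-1.04) had the lowest log2 ratios between the knockdown libraries.

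**Figure D3:**
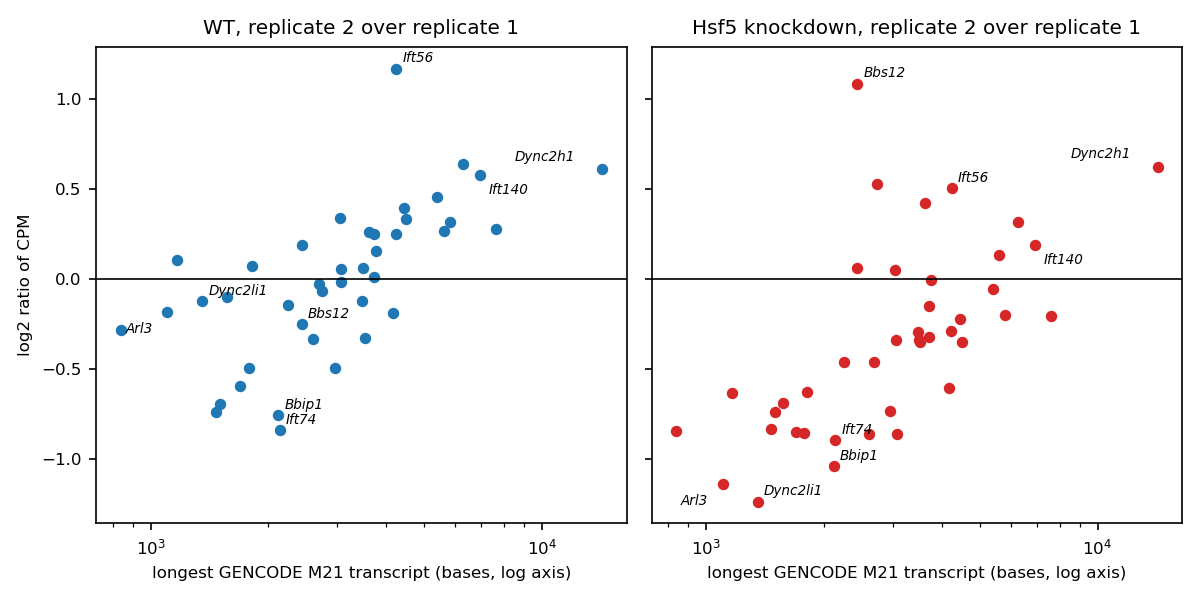
Log2 ratio of CPM in replicate 2 over replicate 1 for each of the 41 members against the length of its longest GENCODE M21 transcript (bases, log axis), in WT (left, r = 0.65) and in the Hsf5 knockdown (right, r = 0.63). Short transcripts lie lower than long ones in both panels, and Bbs12 stands high in the knockdown panel.

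The other genes of ciliary transport, 69 tested from a fixed list, moved in both directions. Of these 33 (47.8%) fell, 10 (14.5%) rose and 26 did not pass, against 33.5% lower and 27.4% higher over all genes. Their median log2 fold change was -0.75, and that of all genes was -0.12. With library totals only 21 were lower and 17 higher, where 28.3% of all genes were lower and 34.4% higher. Kinesin-2, the outward motor, had 4 of 5 genes (80.0%) lower, against 33.5% of all genes. Kif17, the homodimeric kinesin-2, had 124 and 110 CPM in WT and 6.80 and 7.90 CPM in the knockdown, a lower fold change than that of any member, a difference that was not tested (-3.99, SE 0.33; edgeR, adjusted p = 2.16e-05). The motor subunit gene Kif3b had 502 and 513 CPM and then 114 and 131 CPM (-2.05, SE 0.30; edgeR, adjusted p = 0.000449). Kif3a and Kifap3, which complete that trimer, had -0.88 and -0.94, and Kif3c, from 2.41 and 4.55 CPM to 6.48 and 13.7 CPM, rose.

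Of 13 further IFT, BBS and light chain genes 5 (38.5%) fell and 4 (30.8%) rose, near the 33.5% and 27.4% of all genes. The dynein light chain paralogs had opposite signs: Dynlrb2 fell from 96.1 and 61.2 CPM to 12.4 and 6.71 CPM (edgeR, adjusted p = 0.000341), whereas Dynlrb1 rose from 5.43 and 6.49976 CPM to 48.6 and 33.9 CPM (adjusted p = 0.000359). Dynll2 rose from 89.5 and 74.7 CPM to 290 and 271 CPM (log2 fold change 1.77; edgeR, adjusted p = 0.000829). Ttc8, the BBSome subunit BBS8, which the rule does not include, had 34.0 and 34.4 CPM and then 35.3 and 27.4 CPM and did not pass (-0.13, SE 0.33).

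Among 17 genes of lipidated cargo and its delivery 8 (47.1%) fell and 3 (17.6%) rose, against 33.5% and 27.4% of all genes. One that rose, Tulp1, lay near the floor, at 0.0596 and 0 CPM in WT and 0.678 and 0.461 CPM in the knockdown (4.04, SE 1.10). Unc119 and Unc119b, which carry myristoylated proteins that Arl3 releases, rose, Unc119b from 10.7 and 13.7 CPM to 108 and 92.7 CPM (3.04, SE 0.33; edgeR, adjusted p = 9.05e-05) and Unc119 with a log2 fold change of 3.91. Arl3 itself fell, as given above. Rab3ip, which encodes the activator Rabin8 of Rab8, fell from 147 and 132 CPM to 33.2 and 25.2 CPM (edgeR, adjusted p = 0.000296). Transition zone and Inversin compartment genes form the gate at the cilium base. Of 24 such genes 10 (41.7%) fell and 2 (Tmem17 and Cc2d2a, 8.33%) rose, against 33.5% and 27.4% of all genes. Rpgrip1 fell furthest, from 350 and 425 CPM to 3.28 and 3.999 CPM (-6.73, SE 0.38; edgeR, adjusted p = 5.25e-06). Ahi1 fell from 384 and 437 CPM to 47.0 and 50.1 CPM (-3.08, SE 0.31; edgeR, adjusted p = 5.93e-05) and Nek8, a kinase of the Inversin compartment, had a log2 fold change of -2.23 (adjusted p = 0.000615).

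Of 10 tested regulator genes of ciliated or late meiotic cells 6 (60.0%) fell and none rose. All encode transcription factors except Ccno, a cyclin gene, which did not pass. Of all genes 33.5% fell and 27.4% rose. Rfx2, whose product binds the X-box and is required for spermatid development, had 523 and 692 CPM in WT and 177 and 154 CPM in the knockdown (-1.88, SE 0.32; edgeR, adjusted p = 0.000963). Rfx4 fell from 146 and 132 CPM to 30.7 and 30.1 CPM (-2.19, SE 0.29; edgeR, adjusted p = 0.000260), and Foxj1, a regulator of motile cilia, from 42.4 and 38.0 CPM to 8.77 and 6.91 CPM (-2.36, SE 0.37; adjusted p = 0.000626). Mybl1, the pachytene MYB factor, had 153 and 177 CPM and then 85.0 and 82.9 CPM (-0.97, SE 0.28; edgeR, adjusted p = 0.0136). Rfx3 and Rfx5 overlapped between the groups and did not pass.

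**Figure D4:**
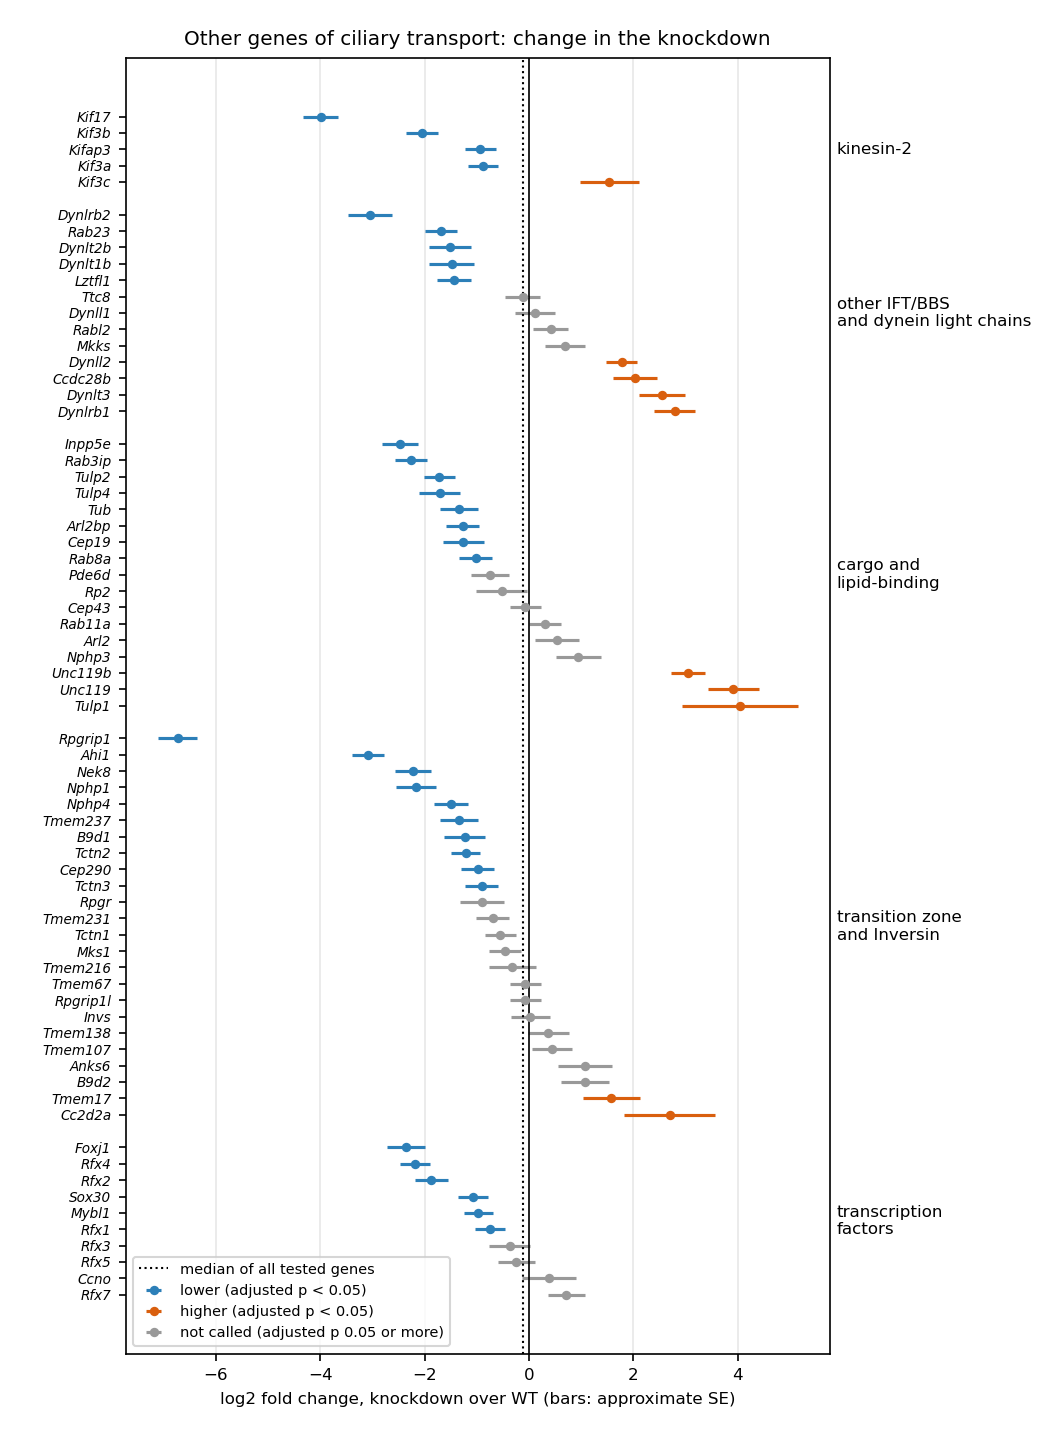
Log2 fold change of knockdown over WT, with bars of 1 approximate standard error, for 69 other genes of ciliary transport in 5 lists, coloured by call. The list of transcription factors also holds the cyclin gene Ccno. Rpgrip1 at -6.73 and Kif17 at -3.99 lie furthest to the left, and Unc119, Unc119b and Tulp1 (below 1 CPM in every library) furthest to the right.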

How the data were processed

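Polyadenylated RNA of 4 libraries was sequenced, and the authors deposited 1 table of raw read counts per gene (50763 genes, no blank or total row). The submitters' processing notes name the mm39 build and the tools featureCounts 1.5.3, HISAT2 2.2.1, Trim Galore 0.6.10 and DESeq2 1.46.0. Annotation, strand setting and treatment of multi-mapping reads are not given in the sources consulted. Each column was matched to its sample by the name in the label.

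In R 4.3.3, edgeR 4.0.16 filtered genes by group (filterByExpr; 23594 kept), scaled by TMM (factors 0.854 and 0.865 in WT, 1.11 and 1.22 in the knockdown) and ran the quasi-likelihood test of knockdown against WT without covariates, adjusted over all genes by Benjamini-Hochberg. Standard errors are approximate, from the size of the log2 fold change over the root of its F statistic. The code of the test was run on simulated counts with less spread than these libraries and with few changed genes. That run does not measure error rates or scaling for these data. Replicates differed by more than sampling noise (chi-square over its degrees of freedom was 44.1 in WT and 93.8 in the knockdown). Lists were described by counts and medians and not tested. Members, role groups and lists were chosen with earlier results of these data known. Each member was named with its call, with library values for the strongest calls of a role, those against their role and those that depend on the scaling. In the other lists up to 3 genes with the smallest p among those called were to be named, with Kif17, Ttc8, Rfx2 and Mybl1. Other related genes were named after their values were seen.

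Transcript lengths (longest GENCODE M21 transcript, GRCm38) and promoters (RefSeq, GRCm38.p6) were joined by symbol or RefSeq synonym, and for 6 members by an older symbol known from nomenclature (Hspb11, Ttc30a1, Ttc30a2, Ttc30b, Wdr60 and Wdr34). In that annotation 7 members share exon bases with another gene: Arl6, Bbip1, Bbs12, Bbs4, Cluap1, Ift57 and Ift88. If counting ignored strand, reads of such pairs cannot be told apart. Alternatives were other scalings (DESeq2 1.42.0 size factors, library totals, synaptonemal complex and cohesin genes by median ratio), other filters, the DESeq2 Wald test, a replicate block, glmTreat against 1.5-fold and leaving out each library.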

Additional observations from a re-analysis of the deposited data

How the results depend on the processing

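The counts and calls depend on the scaling more than on the tool. With library totals only, 3 members were higher and 12 lower, and 17 related genes were higher and 21 lower. Of all genes 8121 (34.4%) were then higher and 6680 (28.3%) lower, so the 12 lower members (29.3%) were about the share of all genes. Scaled on synaptonemal complex and cohesin genes, 0 members and 6 related genes were higher and 29 members and 36 related genes lower. Of all genes 2893 were then higher (24.3% of all calls, against 45.0% in the reported fit) and 9030 lower. The shares lower were 70.7% of members and 38.3% of all genes. Under these scalings all genes had a median of 0.31 and -0.84 (log2), and the members -0.43 and -1.62. DESeq2 size factors, other filters, the DESeq2 Wald test, and glmTreat left 15 to 23 members lower and 1 higher. With glmTreat 36.6% of members and 30.4% of all genes were lower. In the others it was 51.2% to 56.1% of members and 23.7% to 34.1% of all genes. Leaving out 1 library gave 1 to 2 members higher and 13 to 19 lower, and 8 to 10 related genes higher and 21 to 30 lower. With 1 sample left in a group, it is assumed to vary like the other group.

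The 23 called members kept their sign in every alternative. Of the 18 others 12 turned sign in at least 1 and 9 passed in at least 1 (Arl13b and Dync2li1 as higher, Bbs4, Bbs5, Dync2i2, Ift20, Ift52, Wdr19 and Wdr35 as lower). With library totals only Arl6 (0.35), Bbs2 (0.19), Bbs9 (0.24), Dync2i2 (0.072), Ift20 (0.13), Ift25 (0.17), Ift56 (0.052) and Ift88 (0.35) turned positive. Scaled on synaptonemal complex and cohesin genes Arl13b (-0.35), Bbs12 (-0.030), Cluap1 (-0.69) and Dync2li1 (-0.15) turned negative. With 1 library left out, values on both sides of 0 were found for Arl6 (-0.48 to 0.30), Bbs12 (-0.085 to 1.07), Cluap1 (-0.29 to 0.50), Ift25 (-0.59 to 0.13), Ift56 (-0.88 to 0.33) and Ift88 (-0.22 to 0.069). Causes were not tested.

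The replicate number, used as a replicate block, gave 1 member higher and 27 lower, and 13 related genes higher and 36 lower. Over all genes it gave 7016 higher and 8351 lower, so 65.9% of members and 35.4% of all genes were lower. The labels tie same-numbered libraries by number only, and their differences within a group correlated across 18053 genes (r = 0.37). Depth limits little here, since the lowest member count in a library was 80. The spread between 2 libraries a group sets the precision.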
